A study of Mus musculus with 132 samples.

Results

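RNA without poly(A) tails, a fraction rich in nascent transcripts, was sequenced, and these libraries are used here to follow the TAL1, LMO2 and LDB1 complex and its E-protein partners while mouse embryonic stem cells (mESCs) differentiated towards blood. The 8 genes Tal1, Lyl1, Lmo2, Lmo4, Ldb1, Tcf3, Tcf4 and Tcf12 were chosen by symbol, at a time when earlier results of these data were known. All 8 were found among the 25146 genes of the count table, which holds 23 libraries. The cells were of the male E14-TG2a mESC line, and the study compared unedited cells with cells that lack a CTCF binding site at Runx1, a gene with a distal promoter, P1, and a proximal promoter, P2. CRISPR-Cas9 deletions removed the CTCF site beside the distal promoter in P1-CTCF-KO cells and the site beside the proximal promoter in P2-CTCF-KO cells. Each knockout clone was grown from a single colony and carries a different deletion on each allele. The paper describes more sub-clones than targeting events for each knockout, so clones of a knockout may share an event. The deletions cannot be checked from counts per gene.

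Undifferentiated wild-type mESCs gave 2 libraries, which the labels call technical replicates. Flk1+ mesoderm, sorted at day 4, gave 3 wild-type, 3 P1-CTCF-KO and 3 P2-CTCF-KO libraries, each from its own clone. Hematopoietic progenitor cells (HPCs), sorted at day 7 as Ter119- CD41+ CD45- cells, gave 4 wild-type libraries from 3 clones, 3 P1-CTCF-KO libraries from 3 clones and 5 P2-CTCF-KO libraries from 3 clones. Undifferentiated knockout cells were not analysed here.

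TAL1 is a basic helix-loop-helix (bHLH) transcription factor needed for the formation of all blood lineages, and LYL1 is its closest relative. Either one pairs with an E protein (TCF3, TCF4 or TCF12) to bind the E-box, CANNTG. The LIM-only protein LMO2 bridges this pair to LDB1 and to GATA1 or GATA2, and LDB1 self-associates, which can bring distant elements together. LMO4 is a broadly expressed LIM-only protein that competes for LDB1, and ID proteins bind E proteins without binding DNA.

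The libraries held 7805102 to 24406998 counts. Entries for ribosomal RNA or for several loci took 87.8% to 91% of the counts in mesoderm and HPC libraries and 68.1% to 76.3% in mESC libraries, and 878966 to 7748566 counts per library were left without them. Levels are given as CPM (the number of counts of a gene divided by the TMM-scaled library size in units of 1e6 counts), so members with few counts per library are imprecise. The gates were seen in the counts. Kdr, which encodes Flk1, had 16.9 to 39.1 CPM in mesoderm and 0.0928 to 0.108 CPM in mESCs. In HPCs Kdr had 2.76 to 18.1 CPM, so that the highest HPC value lay above the lowest mesoderm value. Itga2b, which encodes CD41, had 10 to 79.3 CPM in HPCs and 0.188 to 1.7 CPM in mesoderm. Of the libraries, the wild-type mesoderm library of clone B9.3 and the P2-CTCF-KO HPC library D2.1 stood apart by endothelial markers, with summed levels of 75.9 and 56.2 CPM. Where leaving out either library changed a call on a member, that value is given beside the result. Moves of a member's value by over 1.5 times, or ranges over alternatives, are given for part of the results.

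The members lie on 8 chromosomes in the mm9 build used by the files. Tal1 (chr4:114729030-114744360), Lyl1 (chr8:87225355-87228615), Lmo2 (chr2:103798151-103822035) and Tcf4 (343 kb on chromosome 18) are on the plus strand. Lmo4 (chr3:143851493-143868219), Ldb1 (chr19:46107079-46119801), Tcf3 (chr10:79871909-79896398) and Tcf12 (chr9:71692058-71959626) are on the minus strand. Lyl1 overlaps the Nfix, Tsnax and Mir138-2 entries and Ldb1 overlaps small RNA entries. Reads there were counted for every overlapping entry, so part of the Lyl1 and Ldb1 counts may belong to a neighbour.

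Open chromatin at these loci was read from the ATAC-seq peak lists of the study, which came from an E14-TG2a reporter line and were called on merged libraries, so stages were compared by presence in a list and without a test. In Flk1+ mesoderm, 6 of the 8 members had a peak within 1 kb of the start, all but Lmo2 and Ldb1, where 55.1% of 25011 genes had one. The start was taken as the 5′ end of the counted span of a gene, and other starts inside a gene were not looked at. In the HPC list, 3 of the 8 members (Lmo4, Tcf3 and Tcf4) had such a peak, where 37% of genes had one. The HPC list was also shorter, with 29037 peaks against 76766 in mesoderm, and a peak can be missing because it fell below the threshold of the caller. Peaks of CTCF, which were called in 416B cells, a mouse hematopoietic progenitor line, lay within 1 kb of the start of Lyl1 alone among the 8, where 12.8% of genes had one.

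Within 10 kb of its span, Tal1 had 7 mesoderm peaks and 3 HPC peaks. An open site about 3.6 kb upstream of the Tal1 start was in both lists, the start peaks at 0.1 and 0.3 kb were in the mesoderm list only, and a peak at 6.8 kb was in the HPC list only. Lyl1 had 3 mesoderm and 2 HPC peaks. Its sites 1.4 kb upstream and 7.9 kb downstream of the start were in both lists, and its start peak was in the mesoderm list only. Lmo2 had 2 mesoderm peaks, at 11.5 and 24.4 kb, which both overlapped CTCF peaks, and a single HPC peak at 12.1 kb, in an exon of Lmo2. Whether the peaks at 11.5 and 12.1 kb mark a start inside the gene was not tested. Lmo4 had 4 mesoderm peaks and 1 HPC peak, which lay at its start in both lists. Ldb1 had 1 peak, 5.6 kb inside the gene and in the mesoderm list only. Among the E-protein genes, the start peaks of Tcf3 were in both lists and that of Tcf12 was in the mesoderm list only, while Tcf4 had 15 mesoderm and 10 HPC peaks, of which 4 mesoderm peaks were shared.

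**Figure D1:**
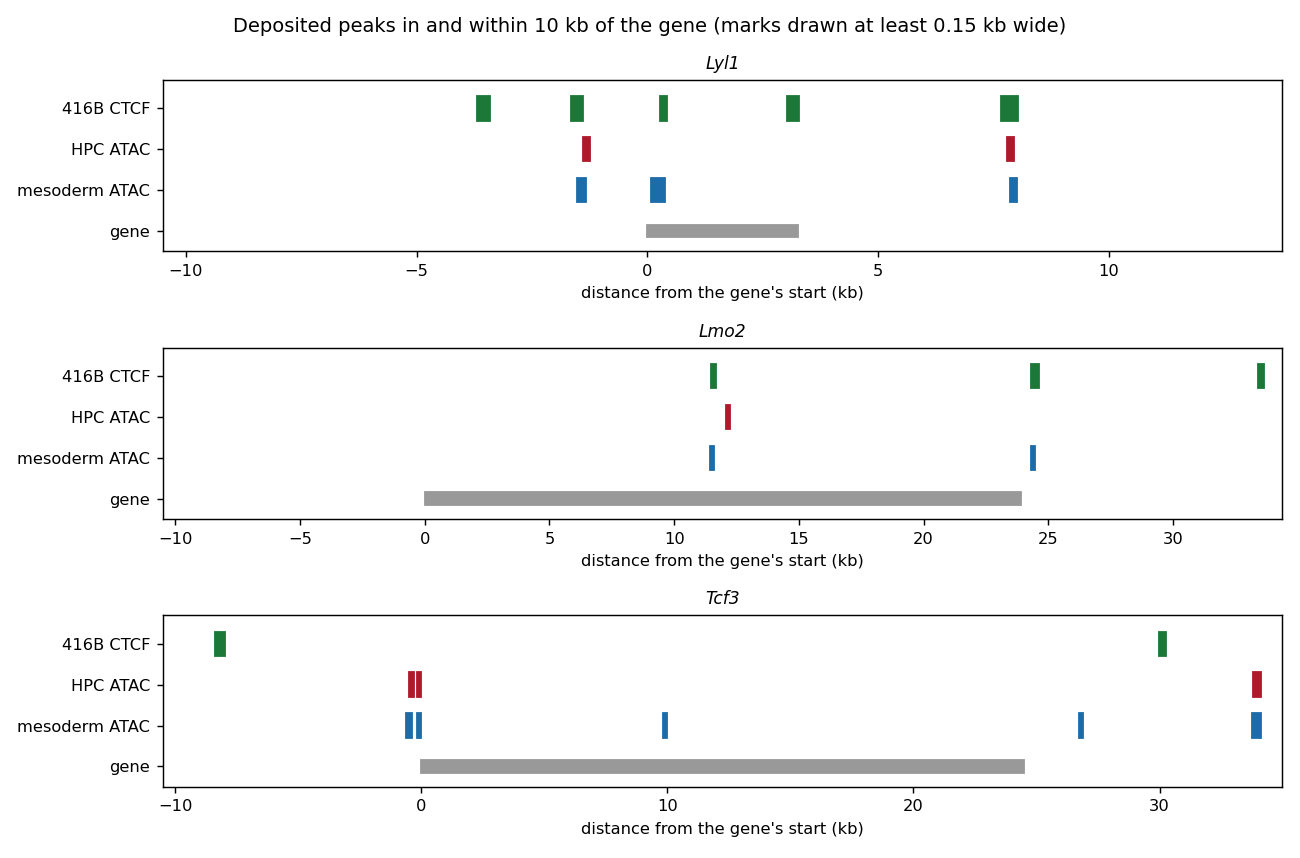
ATAC-seq peaks of Flk1+ mesoderm and HPCs and CTCF peaks of 416B cells around Lyl1, Lmo2 and Tcf3, drawn by distance from the gene start in kb along the direction of transcription. The start peaks of Tcf3 are in both ATAC-seq lists, that of Lyl1 is in the mesoderm list only, and Lmo2 has none at the 5′ end of its span. Lmo2 has peaks inside the gene, at 11.5 kb in mesoderm and 12.1 kb in HPCs.

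Windows of 300 bases centred on peaks are printed for 5 sites that show the motifs the complex and its partners are known to bind. They run 5′ to 3′ on the plus strand of mm9. Capitals mark a GATA motif (AGATAA), a composite motif (CTG, then 7 or 8 bases, then GATA) or a RUNX motif (TGTGGT), each searched on both strands. E-boxes (CANNTG) were counted and not marked, and an E-box can overlap a marked motif. Of the 76764 mesoderm windows, 75.4% held an E-box, 21.2% a GATA motif, 6.95% a composite and 19.9% a RUNX motif. Of the 29035 HPC windows, the shares were 74.1%, 15.4%, 6.5% and 24.7%. A match describes the letters and does not show that a factor was bound.
Tal1 start, intron, mesoderm, chr4:114729134-114729433, GATA motif and 1 E-box: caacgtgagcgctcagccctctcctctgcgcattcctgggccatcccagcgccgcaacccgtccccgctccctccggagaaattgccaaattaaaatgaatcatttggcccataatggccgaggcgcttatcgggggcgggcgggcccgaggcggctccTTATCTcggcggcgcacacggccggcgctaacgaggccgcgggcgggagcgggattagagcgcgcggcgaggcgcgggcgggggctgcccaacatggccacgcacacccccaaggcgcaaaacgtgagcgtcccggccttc
Lyl1 7.9 kb downstream, intron of Nfix, HPCs and overlapping a CTCF peak, chr8:87233071-87233370, RUNX motif and 1 E-box that overlaps it: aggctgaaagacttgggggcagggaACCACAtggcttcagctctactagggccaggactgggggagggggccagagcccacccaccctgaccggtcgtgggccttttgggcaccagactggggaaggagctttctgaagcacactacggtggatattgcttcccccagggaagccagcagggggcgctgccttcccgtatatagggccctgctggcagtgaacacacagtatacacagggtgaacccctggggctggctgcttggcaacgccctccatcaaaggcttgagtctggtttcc
Lmo2 24.4 kb downstream, mesoderm and overlapping a CTCF peak, chr2:103822396-103822695, GATA motif and 2 E-boxes: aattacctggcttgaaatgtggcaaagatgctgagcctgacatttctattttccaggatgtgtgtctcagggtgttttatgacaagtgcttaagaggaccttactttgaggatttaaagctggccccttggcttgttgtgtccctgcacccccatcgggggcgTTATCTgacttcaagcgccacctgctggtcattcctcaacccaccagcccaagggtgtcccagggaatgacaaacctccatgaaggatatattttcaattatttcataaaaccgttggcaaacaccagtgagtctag
Tcf3 start, 0.5 kb upstream, mesoderm, chr10:79896732-79897031, GATA motif and 2 E-boxes: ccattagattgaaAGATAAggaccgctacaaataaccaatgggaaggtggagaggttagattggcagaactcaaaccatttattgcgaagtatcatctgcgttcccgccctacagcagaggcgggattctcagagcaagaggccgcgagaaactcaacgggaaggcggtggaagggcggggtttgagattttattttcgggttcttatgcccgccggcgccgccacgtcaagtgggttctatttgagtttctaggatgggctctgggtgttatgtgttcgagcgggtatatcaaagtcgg
Tcf12 27.5 kb inside the gene, intron, mesoderm, chr9:71931969-71932268, composite and 2 E-boxes: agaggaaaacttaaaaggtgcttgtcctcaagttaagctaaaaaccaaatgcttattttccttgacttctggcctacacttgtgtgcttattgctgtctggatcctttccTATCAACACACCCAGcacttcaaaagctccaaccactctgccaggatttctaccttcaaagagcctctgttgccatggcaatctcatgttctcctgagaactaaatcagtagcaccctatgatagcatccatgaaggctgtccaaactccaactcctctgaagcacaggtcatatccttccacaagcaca

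Tal1 was near the detection limit in mESCs, present in wild-type and P1-CTCF-KO mesoderm, low in P2-CTCF-KO mesoderm and highest in HPCs. The mESC libraries had 0.0981 and 0.136 CPM, from 10 and 25 counts. In mesoderm, Tal1 had 2.50, 2.64 and 3.16 CPM in wild-type, 1.73, 3.35 and 3.74 CPM in P1-CTCF-KO and 0.138, 0.375 and 1.63 CPM in P2-CTCF-KO libraries. In HPCs it had 9.73, 10.3, 10.3 and 11.8 CPM in wild-type, 12.4, 12.8 and 15.8 CPM in P1-CTCF-KO and 5.30, 7.08, 9.81, 9.88 and 16.2 CPM in P2-CTCF-KO libraries. No mesoderm library reached the lowest HPC library. The P2-CTCF-KO mesoderm libraries, with 2, 4 and 22 counts, all lay below the lowest wild-type and P1-CTCF-KO libraries, and the lowest of them lay beside the mESC libraries. Here and below, the share of all genes whose libraries separate in such a way was not counted.

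Lyl1 followed the same order of stages at fewer counts. It had 0.0131 ± 0.00465 CPM in mESCs (SD, n = 2), with 1 and 3 counts. Mesoderm libraries had 0.122, 0.300 and 0.754 CPM in wild-type, 0.176, 0.197 and 0.206 CPM in P1-CTCF-KO and 0.0689, 0.0938 and 0.148 CPM in P2-CTCF-KO cells, none from more than 13 counts. HPC libraries held 1.08 to 3.35 CPM in wild-type, 2.53 to 3.65 CPM in P1-CTCF-KO and 1.46 to 3.0 CPM in P2-CTCF-KO cells. No mesoderm library overlapped the HPC libraries.

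Of the LIM-domain side of the complex, Lmo2 followed the blood stages, while Ldb1 was nearly level. Lmo2 had 0.0196 and 0.0600 CPM in mESCs, from 2 and 11 counts. In mesoderm it had 0.960, 0.972 and 1.22 CPM in wild-type, 1.03, 1.18 and 1.58 CPM in P1-CTCF-KO and 0.188, 0.740 and 0.826 CPM in P2-CTCF-KO libraries. In HPCs it had 4.04, 4.10, 5.83 and 6.70 CPM in wild-type, 5.07, 6.21 and 6.82 CPM in P1-CTCF-KO and 2.3, 3.36, 4.65, 4.78 and 6.20 CPM in P2-CTCF-KO libraries. The P2-CTCF-KO mesoderm libraries again lay below all wild-type and P1-CTCF-KO mesoderm libraries. Lmo4 ranged from 0.180 to 1.03 CPM over the 9 mesoderm libraries and from 0.279 to 1.74 CPM over the 12 HPC libraries, beside 0.633 and 0.687 CPM in mESCs. The P1-CTCF-KO mesoderm libraries (0.247, 0.328 and 0.411 CPM) lay below the mESC, wild-type HPC (0.493 to 1.29 CPM) and P1-CTCF-KO HPC (0.507 to 1.68 CPM) libraries, and wild-type and P2-CTCF-KO mesoderm overlapped every other group. Ldb1 lay between 2.00 and 4.38 CPM in all 23 libraries, and its group means ran from 3.0 ± 0.905 CPM (SD, n = 3) in P2-CTCF-KO mesoderm to 3.94 ± 0.424 CPM (SD, n = 3) in wild-type mesoderm, so neighbours in that order did not differ beyond their spread.

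The E-protein genes took 3 different courses. Tcf3, which encodes E12 and E47, had 5.30 and 6.03 CPM in mESCs, 5.07 to 8.19 CPM in the 9 mesoderm libraries and 2.23 to 4.99 CPM in the 12 HPC libraries. No HPC library reached the lowest mesoderm library. Tcf4, which encodes E2-2, had 5.31 and 6.54 CPM in mESCs. Its mesoderm libraries had 18.2, 25.0 and 44.6 CPM in wild-type, 20.4, 23.9 and 24.8 CPM in P1-CTCF-KO and 10.9, 12.9 and 17.9 CPM in P2-CTCF-KO cells, so that every P2-CTCF-KO library lay below every other mesoderm library. HPC libraries had 7.30 to 11.2 CPM in wild-type, 10.3 to 16.0 CPM in P1-CTCF-KO and 5.70, 6.63, 10.4, 11.8 and 46.1 CPM in P2-CTCF-KO cells. The values of 44.6 and 46.1 CPM came from the libraries B9.3 and D2.1 with the high endothelial sums. Tcf12, which encodes HEB, had 4.84 and 7.13 CPM in mESCs, 18.6 to 40.7 CPM in mesoderm and 16.6 to 31.1 CPM in HPCs, and the mesoderm and HPC libraries overlapped.

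**Figure D2:**
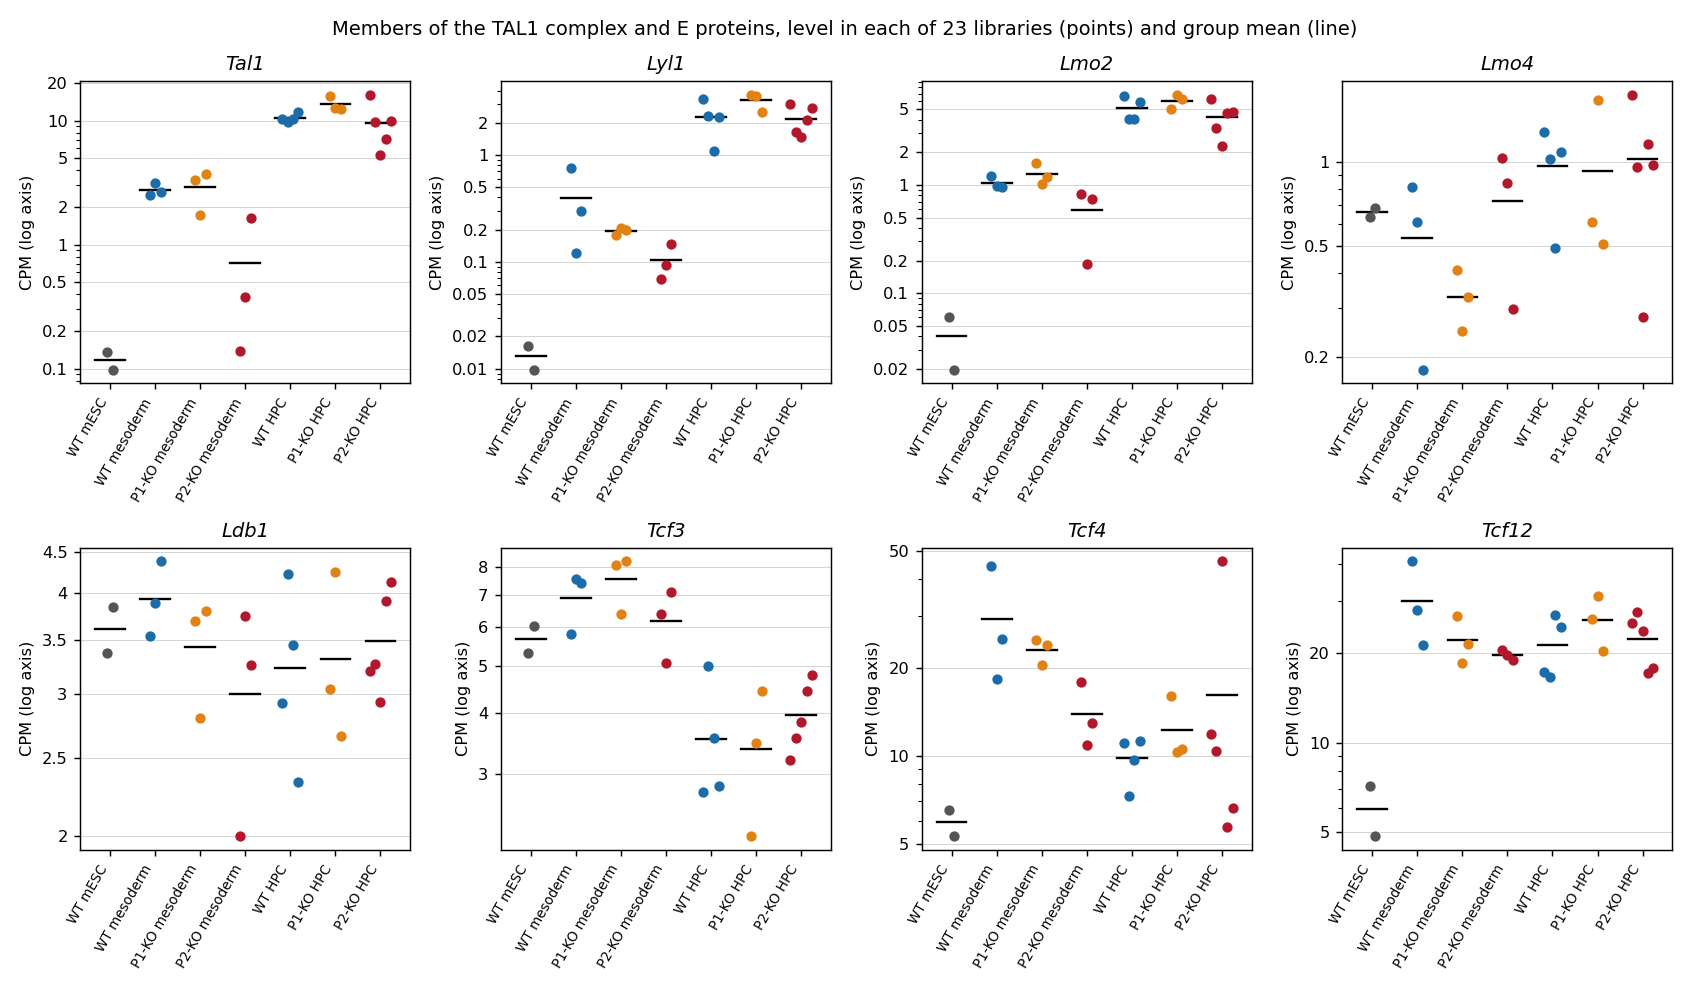
Level of each of the 8 members in CPM (log axis) in the 23 libraries, by stage and genotype, with 1 point per library and a line at the mean of each group (WT, wild-type; KO, CTCF-KO). Tal1, Lyl1 and Lmo2 rise from mESCs to mesoderm to HPCs, Ldb1 stays between 2.00 and 4.38 CPM, and the P2-CTCF-KO mesoderm points of Tal1, Lmo2 and Tcf4 lie below those of the other mesoderm libraries. The share of all genes with that order was not counted, and none of these members was called between genotypes in the main mesoderm fit.

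Members were compared with each other per kb of counted length, on the scale of mean CPM per kb. In mESCs, Ldb1 (0.284) and Tcf3 (0.231) led, and Tcf12 (0.0224), Tcf4 (0.0172), Tal1 (0.00765), Lyl1 (0.00402) and Lmo2 (0.00167) were lower, with Lmo4 at 0.0395. In wild-type mesoderm Ldb1 (0.309) and Tcf3 (0.282) still led, followed by Tal1 (0.180), Lyl1 (0.12), Tcf12 (0.112), Tcf4 (0.0851), Lmo2 (0.0440) and Lmo4 (0.0319). The place of Lyl1 rested on library B9.3, without which Lyl1 (0.0646) lay below Tcf12 (0.0921), and Tcf4 had 0.0629. In wild-type HPCs, Lyl1 (0.689) and Tal1 (0.687) were highest, above Ldb1 (0.254), Lmo2 (0.216), Tcf3 (0.144), Tcf12 (0.0797), Lmo4 (0.0581) and Tcf4 (0.0286). On this scale Tcf3 made up 85.3% ± 3.85 (SD, n = 2) of the summed E-protein level in mESCs, 59.4% ± 11.9 (SD, n = 3) in wild-type mesoderm and 56.5% ± 9.97 (SD, n = 4) in wild-type HPCs. Tcf12 went from 8.31% to 23.1% and 31.9%, and Tcf4 from 6.39% to 17.5% and 11.7%. Lmo2 made up 4.09% of the sum of Lmo2 and Lmo4 in mESCs, 61% in wild-type mesoderm and 79.1% in wild-type HPCs. Without B9.3 the wild-type mesoderm shares were 66.3% for Tcf3, 20% for Tcf12, 13.7% for Tcf4 and 65.9% for Lmo2. These shares describe the libraries and were not tested.

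From undifferentiated mESCs to wild-type Flk1+ mesoderm, Tal1, Lyl1, Lmo2 and the E-protein genes Tcf4 and Tcf12 rose while Ldb1, Tcf3 and Lmo4 were not called. Of the 8 members, 5 rose and 0 fell, where 12.3% of the 12899 genes tested were called higher and 14.9% lower (edgeR quasi-likelihood test, Benjamini-Hochberg adjusted p under 0.05). Lyl1, 1 of these 5, passed the filter only in fits that also held HPC libraries. With 1 to 13 counts per wild-type mesoderm library, it did not pass in the fit of mesoderm libraries alone. The median log2 fold change was 2.31 for the members and -0.181 for all genes tested. With DESeq2 the median of all genes was -0.0351 and 1911 genes were higher and 1367 lower, against 1588 and 1919 with edgeR. In bulk samples, fewer cells of a type and less RNA per cell cannot be told apart. RiboMinus depletion was stated for mESCs and not for the sorted cells, so the stage and the library preparation cannot be told apart in this comparison.

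Tal1 was higher in mesoderm by a log2 fold change of 4.47 (95% interval 3.87 to 5.08, adjusted p = 1.8e-05 with edgeR), Lmo2 by 4.50 (3.42 to 5.58, adjusted p = 0.00014) and Lyl1 by 4.69 (2.57 to 6.81, adjusted p = 0.0017). These 3 genes had few mESC counts, and the intervals of Lmo2 and Lyl1 were wide. Lmo2 had 5.41 without the first mESC library and Lyl1 3.86 without the mesoderm library B9.3, both still called. Tcf4 rose by 2.3 (1.56 to 3.04, adjusted p = 0.0012 with edgeR) and Tcf12 by 2.32 (1.62 to 3.02, adjusted p = 0.00087). The log2 fold change was 0.12 (-0.46 to 0.70) for Ldb1, 0.27 (-0.31 to 0.86) for Tcf3 and -0.33 (-1.46 to 0.80) for Lmo4, which had -0.96 without B9.3.

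Part of the genes whose products work with the complex also rose in mesoderm. Of 5 DNA-binding partners all 5 rose, where 12.3% of all genes tested were called higher. Gata2 rose by 3.46 (adjusted p = 0.00027 with edgeR), Runx1 by 3.82 and Fli1 by 9.89 (6.82 to 13), the latter against 4 counts over both mESC libraries. Gata1 had no counts in mESCs and 2 in wild-type mesoderm, and it was tested in a fit that also held the HPC libraries. Of 10 corepressors and coactivators 4 rose, with Cbfa2t3, which encodes the corepressor ETO2, at 4.93, Runx1t1 at 1.57 and Rcor1, a subunit of the LSD1 complex, at 1.47. Of 4 LDB1-binding and SSBP cofactors tested 3 rose. They were Ldb2 (6.21), Ssbp2 (1.75) and Ssbp3 (1.16), of which SSBP proteins are known to protect LDB1 from degradation. Id3 rose by 3.15 (adjusted p = 0.00036 with edgeR), the only one of 3 ID genes tested that was called. Of 14 genes described as bound targets of the complex 7 rose, among them Zfpm1 (3.80), which encodes the GATA1 cofactor FOG1, and Itga2b (4.44). Nfe2 was another, and its only wild-type mesoderm counts were in library C8.1. Among other tissue-specific bHLH genes, whose products also pair with E proteins, 2 of 3 tested rose, Hand1 and Twist2, and Tcf15 fell. Many of these list calls rest on single libraries. With either mESC library left out, Ldb2, Ssbp3, Gata1, Tcf15 and Twist2 were not called, Gfi1b and Erg were lost without the first mESC library, and Ssbp2 and Runx1t1 without the second. Ssbp3 was also lost without the mesoderm library C8.1 and Gata1 without B9.3 or C8.1. Ldb2 had 2.99 and Fli1 8.97 without B9.3, which held 437 of the 462 Ldb2 counts of wild-type mesoderm. The 4 LIM-homeodomain genes had too few counts to be tested.

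From wild-type mesoderm to HPCs, Tal1, Lyl1 and Lmo2 rose again, while the E-protein gene Tcf3 fell. Of the 8 members 3 rose and 2 fell, where 17% of the 9170 genes tested were higher in HPCs and 16.9% lower. Lyl1, 1 of these 3, passed the filter through the HPC libraries in this fit of all genotypes, so its direction was partly fixed by the filter. Tal1 rose by a log2 fold change of 1.91 (1.02 to 2.80, adjusted p = 0.0028 with edgeR), Lyl1 by 2.33 (1.40 to 3.27, adjusted p = 0.00056) and Lmo2 by 2.25 (1.52 to 2.98, adjusted p = 0.00015). Lyl1 had 3.18 without the mesoderm library B9.3. Tcf3 fell by 1.0 (interval -1.51 to -0.50, adjusted p = 0.0035 with edgeR). Tcf4 fell by 1.61 (interval -2.70 to -0.51, adjusted p = 0.023 with edgeR), a call that was lost without the wild-type mesoderm library B9.3 (-1.17, adjusted p = 0.13) and without the HPC libraries B9.3-2 (-1.49, adjusted p = 0.058) or C6.1 (-1.59, adjusted p = 0.05). Tcf12 had -0.52 (-1.03 to -0.02, adjusted p = 0.10), Ldb1 -0.32 (-0.83 to 0.19) and Lmo4 0.85 (-0.40 to 2.1), or 1.43 without the mesoderm library B9.3.

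P1-CTCF-KO cells showed the same calls over this step for Tal1 (2.21), Lyl1 (3.98), Lmo2 (2.25) and Tcf3 (fell by 1.15, adjusted p = 0.0024 with edgeR), that is 3 members up and 1 down, where 20.4% of genes were higher and 19% lower. Tcf4 had -0.92 (-2.1 to 0.26) there. In P2-CTCF-KO cells Tal1 rose by 3.7 (2.68 to 4.72, adjusted p = 2.7e-05 with edgeR), Lyl1 by 4.24 (2.81 to 5.67) and Lmo2 by 2.76 (1.97 to 3.54), and Tcf3 fell by 0.67 (interval -1.15 to -0.19, adjusted p = 0.025). Tal1 had 5.22 without the mesoderm library E9.1, which held 22 of its 28 counts. These were 3 members up and 1 down, where 21.7% of genes were higher and 15.6% lower. The Tcf3 call in P2-CTCF-KO cells was lost with the clone as a block (-0.63, adjusted p = 0.069) and without the mesoderm libraries D10.1 (-0.64, adjusted p = 0.069) or E9.1 (-0.57, adjusted p = 0.11) or the HPC library D10.1 (-0.60, adjusted p = 0.054). Tcf4 had 0.20 (-0.85 to 1.25) with all P2-CTCF-KO libraries and -0.78 (adjusted p = 0.03 with edgeR) without the libraries B9.3 of wild-type mesoderm and D2.1 of P2-CTCF-KO HPCs, a setting chosen after seeing the data. Under the same setting Tcf4 in P1-CTCF-KO cells was called too (-0.92, adjusted p = 0.019), as was Lmo4 (1.56, adjusted p = 0.04), which had 0.77 without the P1-CTCF-KO HPC library E7.2 alone.

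**Figure D3:**
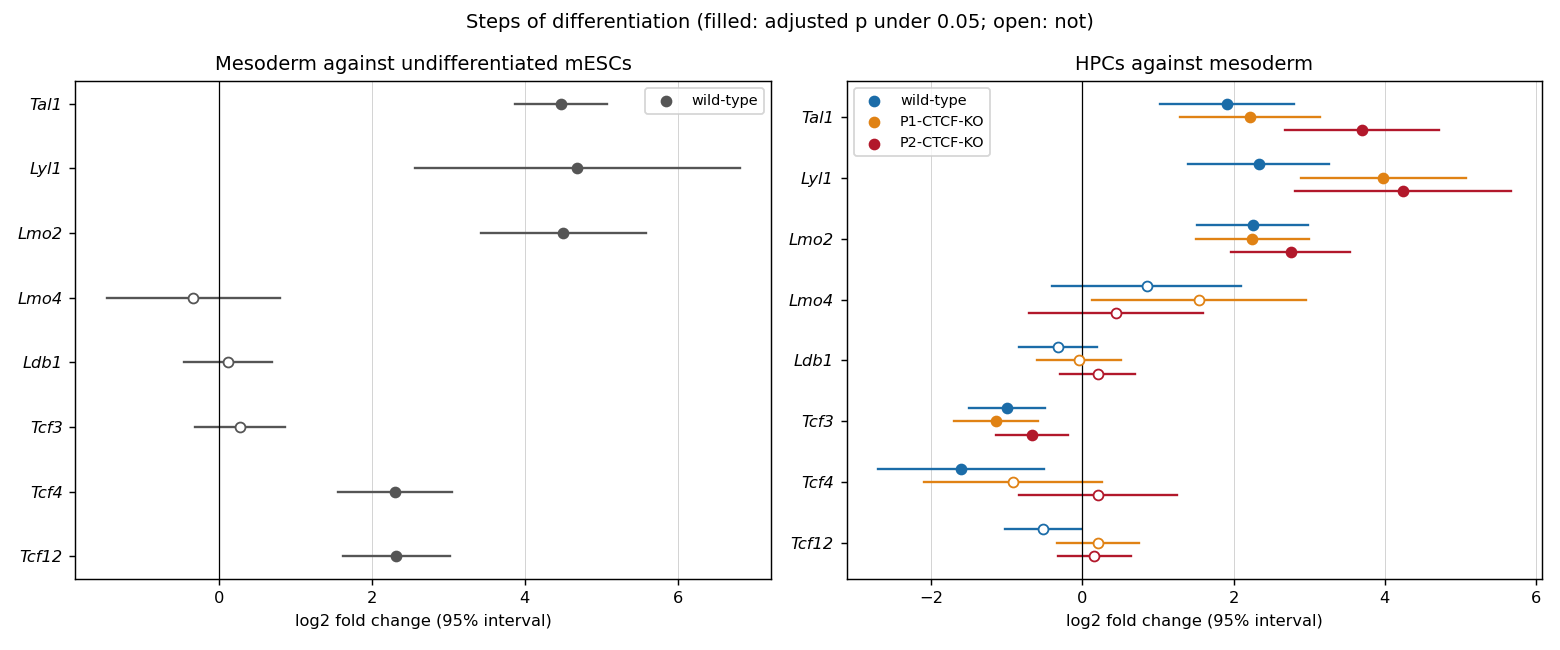
log2 fold change of each member with its 95% interval for wild-type mesoderm against mESCs and for HPCs against mesoderm in the 3 genotypes, with filled points for called genes. Tal1, Lyl1 and Lmo2 are called higher in each comparison, and Tcf3 is called lower from mesoderm to HPCs in each genotype.

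Among the genes that work with the complex, those for GATA1, FOG1, ETO2 and GFI1B were higher in HPCs than in mesoderm and the ID genes lower. Gata1 rose by 5.93 (3.84 to 8.02, adjusted p = 5.6e-06 with edgeR) in wild-type cells, from 0.0394 to 3.54 CPM, by 5.82 (4.22 to 7.41) in P1-CTCF-KO and by 6.51 (3.67 to 9.35) in P2-CTCF-KO cells, against 1 to 4 counts in all mesoderm libraries of a genotype, and by 8.32 in P2-CTCF-KO cells without the mesoderm library E9.1. Gata2 was not called, with 1.23 CPM in wild-type mesoderm and 0.854 CPM in wild-type HPCs. Of the 5 partners, 2 rose in wild-type (Gata1 and Runx1, 3.16), 3 in P1-CTCF-KO and 4 in P2-CTCF-KO cells, and none fell. Of all genes tested, 17%, 20.4% and 21.7% were called higher in that order, and 16.9%, 19% and 15.6% lower. Gata1, with so few mesoderm counts, passed the filter through the HPC libraries. Id1 fell by 3.80 (interval -5.61 to -1.99, adjusted p = 0.00051 with edgeR) and Id3 by 6.00 (interval -9.78 to -2.23, adjusted p = 0.00015) in wild-type cells, the 2 ID genes tested, and both fell in either knockout. Id3 went from 2.16 to 0.0247 CPM, the latter from 1 count over 4 libraries, and in P2-CTCF-KO HPCs its 7 counts were all in library D2.1.

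Of 10 corepressors and coactivators 2 rose in wild-type, 3 in P1-CTCF-KO and 4 in P2-CTCF-KO cells, and Kdm1a, which encodes LSD1, fell in each genotype (by 0.79, 0.80 and 0.64). Cbfa2t3 rose by 2.64, 3.32 and 5.28 in that order and Gfi1b by 4.91 (3.35 to 6.47), 5.44 (3.91 to 6.97) and 6.23 (3.51 to 8.94), the last against 2 counts in P2-CTCF-KO mesoderm, both in library E9.1. The wild-type value for Gfi1b was 4.2 without the mesoderm library B9.3 and 5.65 without C6.1. Of the 5 cofactors tested, Ssbp2 rose (1.82 in wild-type, 2.95 in P1-CTCF-KO and 3.50 in P2-CTCF-KO cells) and Lmo1 fell in each genotype. Of 4 other bHLH genes 4 fell in wild-type, 3 in P1-CTCF-KO and 2 in P2-CTCF-KO cells, among them Hand1, which acts in heart and extraembryonic mesoderm and fell by 4.06 in wild-type cells, where 16 counts were left in HPC library B9.3 and none in the other 3. Of the wild-type calls, Twist1 and Hand2 were lost without the mesoderm library B9.3 and Twist2 without any of several single libraries. The LIM-homeodomain gene tested, Lhx1, fell in wild-type and P2-CTCF-KO cells, the former call being lost without the mesoderm library C6.1 or the HPC library C8.1. Among the 14 bound targets 9 rose and 1 fell in wild-type, 10 rose in P1-CTCF-KO and 13 rose in P2-CTCF-KO cells. They include Nfe2, an erythroid and megakaryocytic transcription factor gene (3.43 CPM in wild-type HPCs), Epb42, a red cell membrane protein gene (3.36 CPM), Alas2, the erythroid enzyme of heme synthesis (9.47 CPM), and Slc4a1, the red cell anion exchanger, with 13.2 CPM in wild-type HPCs and no counts in mesoderm. Targets with few or no mesoderm counts, such as Slc4a1, passed the filter through the HPC libraries and could only be called higher. The direction of the target counts was therefore partly fixed by the filter. The fall of the endothelial cadherin gene Cdh5 in wild-type cells (-3.17) was lost without the mesoderm library B9.3 (-0.49, adjusted p = 0.81). These list calls stand beside summed erythroid markers of 28.8 to 202 CPM in HPCs and 0.18 to 0.607 CPM in wild-type mesoderm, and the part of cell composition in them was not tested.

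Whether deletion of the CTCF site at P1 or P2 changed the members was asked at each stage. In Flk1+ mesoderm, 6 of the 8 members had enough counts to be tested, all but Lyl1 and Lmo4. No member was called in P1-CTCF-KO against wild-type mesoderm with edgeR, where 0% of the 8778 genes tested were called (168 had an unadjusted p under 0.05, and DESeq2 called 0). The differences were 0.09 (-1.03 to 1.20) for Tal1, 0.25 (-0.62 to 1.11) for Lmo2, -0.35 (-1.01 to 0.30) for Tcf4 and -0.44 (-0.94 to 0.07) for Tcf12 on the log2 scale.

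In P2-CTCF-KO mesoderm the means of all 6 members tested were below wild-type, but none was called. Of the members not tested, Lmo4 had a higher mean than wild-type (0.724 against 0.533 CPM) and Lyl1 a lower one (0.104 against 0.392 CPM). With edgeR 0.0342% of the 8778 genes were called, and 1408 had an unadjusted p under 0.05. DESeq2 called 193 genes and 0 members. Tal1 differed from wild-type by -1.89 (-3.24 to -0.53, adjusted p = 0.18 with edgeR), Tcf4 by -1.05 (-1.71 to -0.38, adjusted p = 0.16) and Tcf12 by -0.58 (-1.09 to -0.08, adjusted p = 0.25), which are the 3 members with an unadjusted p under 0.05. Lmo2 had -0.77 (-1.75 to 0.22), Ldb1 -0.38 (-0.93 to 0.17) and Tcf3 -0.12 (-0.56 to 0.32). Over 12 alternatives the adjusted p ran from 0.014 to 0.38 for Tal1 and from 0.012 to 0.51 for Tcf4, and both were called only without the filter on low counts. Tal1 had -3.43 without P2-CTCF-KO mesoderm library E9.1 (adjusted p = 0.12 with edgeR), which held 22 of its 28 counts, and -1.37 without D10.1 (adjusted p = 0.27). Tcf4 had -0.61 without the wild-type library B9.3 (adjusted p = 0.39). Tcf12 ran from -0.79 to -0.30 over the 12 alternatives and was called in none. Without B9.3 its wild-type mean was 24.6 CPM, against 30 CPM with it and 19.7 CPM in P2-CTCF-KO mesoderm. The median log2 difference was -0.677 for the members tested and 0.00894 for all genes.

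Against P1-CTCF-KO mesoderm, P2-CTCF-KO mesoderm had -1.98 (-3.31 to -0.64, adjusted p = 0.27 with edgeR) for Tal1, -1.02 (-1.96 to -0.07, adjusted p = 0.41) for Lmo2 and -0.70 (-1.36 to -0.03, adjusted p = 0.43) for Tcf4. Without E9.1 of P2-CTCF-KO mesoderm Tal1 had -3.52 (adjusted p = 0.095 with edgeR), and its range over 12 alternatives was -3.52 to -1.46. No member was called. With edgeR 0% of genes were called in this comparison, 987 had an unadjusted p under 0.05, and DESeq2 called 96 genes and 0 members.

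Of the genes that work with the complex, the corepressor gene Cbfa2t3 was called lower in P2-CTCF-KO mesoderm, and it was 1 of only 3 genes called in that comparison. Cbfa2t3 had 3.36, 3.40 and 3.66 CPM in wild-type, 1.85, 2.75 and 2.99 CPM in P1-CTCF-KO and 0.344, 0.469 and 0.666 CPM in P2-CTCF-KO mesoderm. The P2-CTCF-KO libraries, with 5, 5 and 9 counts, lay below all others. Cbfa2t3 fell by 2.78 on the log2 scale (interval -3.50 to -2.05, adjusted p = 0.022 with edgeR, 5.8e-06 with DESeq2). The call was lost without wild-type clone C8.1 (adjusted p = 0.14) or P2-CTCF-KO clone D10.1 (0.11), D2.1 (0.14) or E9.1 (0.06). HPCs held 17.8 to 24.5 CPM of Cbfa2t3 in wild-type, 21 to 29.8 CPM in P1-CTCF-KO and 15.2 to 25.2 CPM in P2-CTCF-KO libraries, ranges that overlapped.

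The other lists had no called gene in P2-CTCF-KO mesoderm, among 5 cofactors, 2 ID genes, 4 partners, 5 other bHLH genes, 2 LIM-homeodomain genes and 7 targets tested with edgeR. The following were named after their values were seen. Ssbp2 had 2.08 CPM against 6.65 CPM in wild-type mesoderm (log2 difference -1.63, adjusted p = 0.13), Fli1 -3.59 (adjusted p = 0.14) and the stem cell factor receptor gene Kit -2.99 (adjusted p = 0.15). Erg had no counts in the 3 P2-CTCF-KO libraries and 144, 2 and 29 counts in wild-type. Lmo1 had 2.32 CPM against 0.422 CPM (log2 difference 2.61, adjusted p = 0.13).

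**Figure D4:**
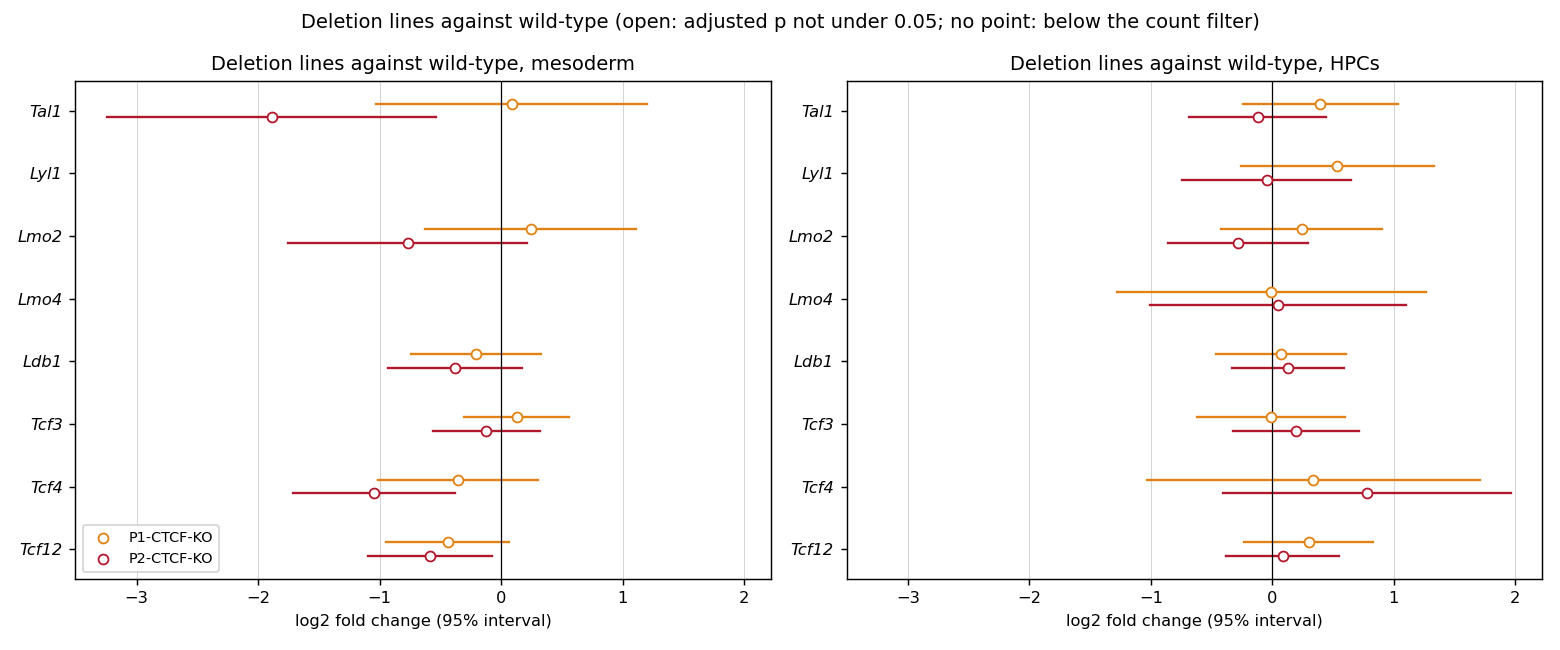
log2 difference from wild-type of either knockout (P1-CTCF-KO, P2-CTCF-KO) with its 95% interval for each member tested, in Flk1+ mesoderm and in HPCs. No member is called. In P2-CTCF-KO mesoderm the intervals of Tal1, Tcf4 and Tcf12 lie below 0, with differences of -1.89, -1.05 and -0.58 from wild-type. Over 12 alternatives these ran from -3.43 to -1.37, from -1.29 to -0.61 and from -0.79 to -0.30.

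Other mesoderm markers moved with these differences. The sum of 5 primitive streak markers was 31 to 65.1 CPM in P2-CTCF-KO mesoderm, against 1.86 to 13.1 CPM in wild-type and 3.93 to 11.9 CPM in P1-CTCF-KO mesoderm. The sum of 7 endothelial markers was 0.482 to 0.75 CPM in P2-CTCF-KO mesoderm, against 1.82 to 75.9 CPM in wild-type and 4.08 to 44.4 CPM in P1-CTCF-KO mesoderm. The value of 44.4 CPM was that of the P1-CTCF-KO library E9.1, beside 4.08 and 16.4 CPM in the other libraries of its group, and no call on a member changed without it. Cardiac mesoderm markers summed to 13.2 to 17.5 CPM against 4.93 to 9.72 CPM in wild-type, and all erythroid markers were at 0 in P2-CTCF-KO mesoderm. The erythroid sums were also near the floor in wild-type (0.18 to 0.607 CPM) and P1-CTCF-KO mesoderm (0.131 to 0.235 CPM). Kdr had 24.2 to 29.8 CPM in P2-CTCF-KO and 16.9 to 37.8 CPM in wild-type mesoderm. The part of these markers in the differences of Tal1, Lmo2, Tcf4 and Cbfa2t3 was not tested.

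**Figure D5:**
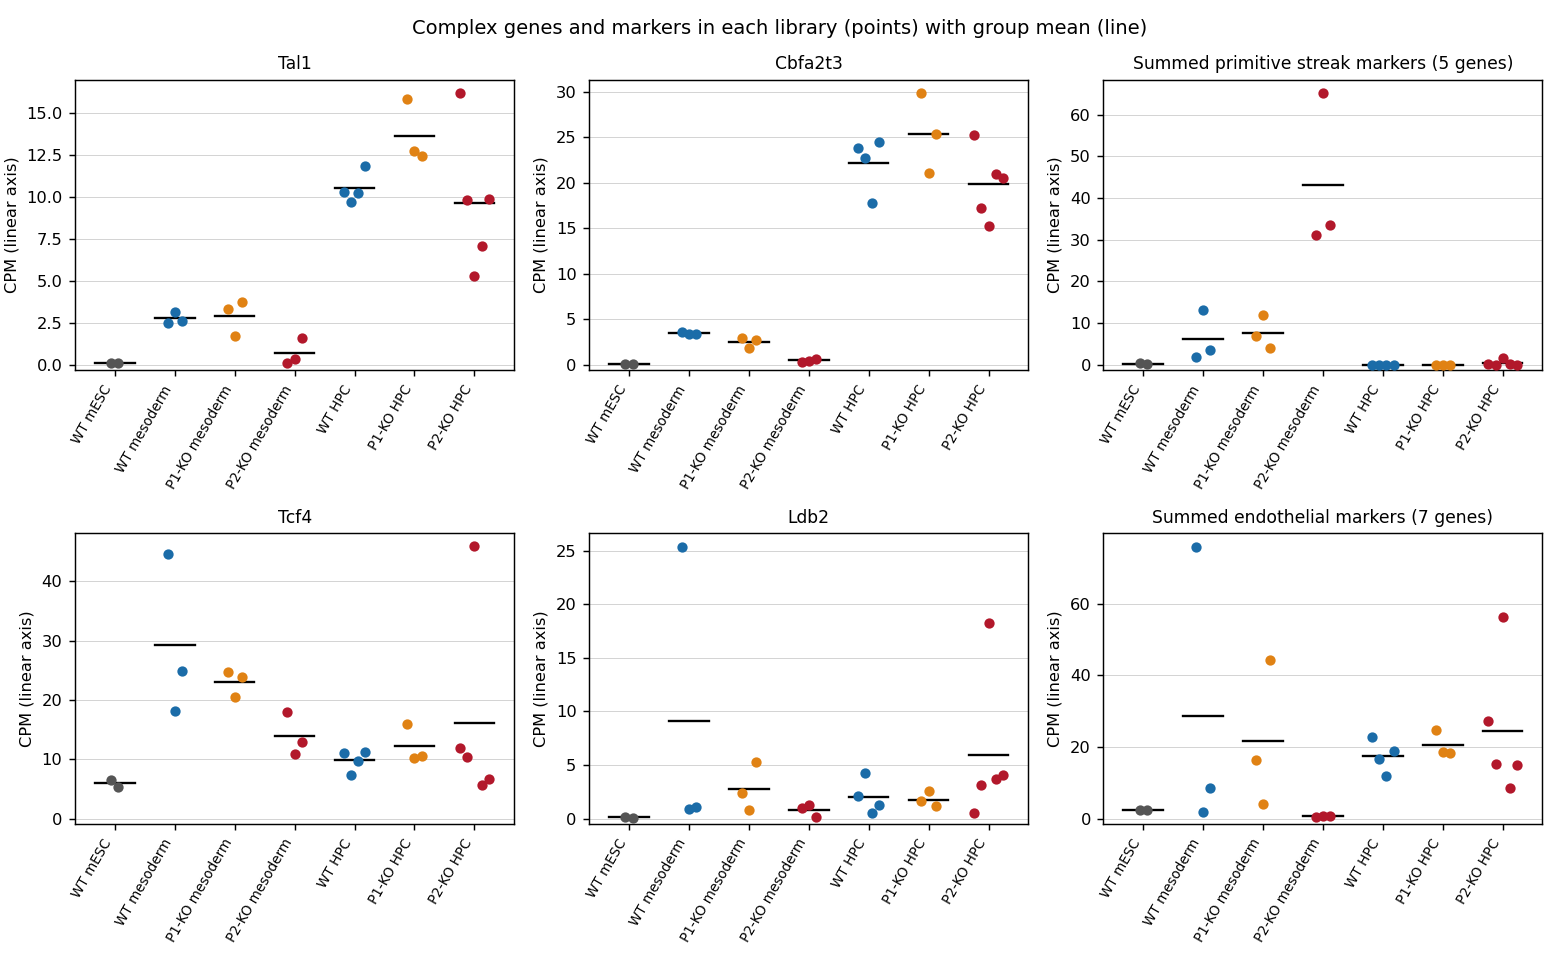
Tal1, Cbfa2t3, Tcf4 and Ldb2 beside summed primitive streak markers (5 genes) and endothelial markers (7 genes) in the 23 libraries, in CPM on linear axes, with 1 point per library. In P2-CTCF-KO mesoderm Tal1 and Cbfa2t3 are low where the primitive streak sum is 31 to 65.1 CPM, and the highest Tcf4 and Ldb2 points are the libraries with endothelial sums of 75.9 and 56.2 CPM.

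In HPCs no member was called between genotypes, but the intervals of several reached past 1 in size on the log2 scale. All 8 passed the filter and none was called in P1-CTCF-KO against wild-type, P2-CTCF-KO against wild-type or P2-CTCF-KO against P1-CTCF-KO HPCs, where edgeR called 0%, 0% and 0% of the 7422 genes tested (260, 145 and 650 with an unadjusted p under 0.05) and DESeq2 called 0 in each. Tal1 differed from wild-type by 0.40 (-0.24 to 1.04) in P1-CTCF-KO and by -0.12 (-0.68 to 0.44) in P2-CTCF-KO HPCs. Lyl1 differed by 0.54 (-0.26 to 1.33) and -0.05 (-0.74 to 0.65). Lmo2 had -0.28 (-0.86 to 0.29) in P2-CTCF-KO HPCs. The intervals of Lmo4 (-1.27 to 1.26 in P1-CTCF-KO) and Tcf4 (-1.03 to 1.71 in P1-CTCF-KO and -0.41 to 1.96 in P2-CTCF-KO) were wide and reached past 1 on the log2 scale. Those of Tal1 and Lyl1 in P1-CTCF-KO HPCs also reached past 1. Against P1-CTCF-KO HPCs, P2-CTCF-KO HPCs had intervals of -1.13 to 0.10 for Tal1, -1.34 to 0.18 for Lyl1 and -1.16 to 0.11 for Lmo2. Tcf4 had 0.78 in P2-CTCF-KO against wild-type HPCs and -0.19 without library D2.1, and 0.44 and -0.53 against P1-CTCF-KO HPCs, so its direction rested on that library. Lmo4 in P1-CTCF-KO HPCs had -0.01 and, without library E7.2, -0.77. No gene of the lists was called in any of the 3 comparisons.

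Whether the step from mesoderm to HPCs was itself different in a knockout was tested as an interaction. No member was called with edgeR or DESeq2. The P1-CTCF-KO step against the wild-type step had 0% of 9170 genes called (306 with an unadjusted p under 0.05, 0 with DESeq2), and Lyl1 had 1.65 (0.21 to 3.08, adjusted p = 1 with edgeR). The P2-CTCF-KO step had 0.0218% called (643 with an unadjusted p under 0.05, 36 with DESeq2). Tal1 had 1.79 (0.43 to 3.14, adjusted p = 0.46 with edgeR), Lyl1 1.91 (0.20 to 3.61, adjusted p = 0.51) and Tcf4 1.81 (0.29 to 3.33, adjusted p = 0.57). These values moved with single libraries. Lyl1 had 0.80 in the P1-CTCF-KO step and 1.06 in the P2-CTCF-KO step without wild-type mesoderm library B9.3. Tal1 had 3.28 without P2-CTCF-KO mesoderm library E9.1 (adjusted p = 0.091 with edgeR) and ran from 1.24 to 3.28 over 24 alternatives. Tcf4 had 1.37 without B9.3, 0.89 without the HPC library D2.1 and 0.41 without both. Cbfa2t3 was 1 of the 2 genes called, with a step larger by 2.64 (1.91 to 3.36, adjusted p = 0.0021 with edgeR) than in wild-type. The same P2-CTCF-KO mesoderm libraries enter this test and the comparison of genotypes in mesoderm, so they are not independent.

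For each member the 2 genes with the most similar course over the 23 libraries were found by the root mean square difference of centred log2(CPM + 1), among 12422 genes with enough counts. For Tal1 these were Nol4l (0.332) and Adam10 (0.364), for Lyl1 Kidins220 (0.206) and Mob3c (0.243), and for Lmo2 Clint1 (0.282) and Rab11a (0.288). For Lmo4 they were Dmac1 (0.221) and Sltm (0.224), and for Ldb1 N6amt1 (0.17) and Thap7 (0.17). For Tcf3 they were Numa1 (0.191) and Gpr161 (0.196), for Tcf4 Mast4 (0.315) and Rbms1 (0.317) and for Tcf12 Usp3 (0.225) and Tut4 (0.242). The standard deviation of the members themselves on that scale was 1.29 for Tal1 and 0.211 for Ldb1, so a small difference for Ldb1 mostly shows 2 level genes. Among the members, Lyl1 and Lmo2 were nearest to each other (0.325) and Tal1 and Tcf3 farthest apart (1.62).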

How the data were processed

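Poly(A)-minus RNA was sequenced in 23 libraries. Reads were aligned to mm9 with STAR, PCR duplicates were removed with picard, and the authors deposited raw counts per gene from featureCounts over exons and introns, with reads in overlapping genes counted for each of them. Tool versions, the annotation and the strand setting were not given in the sources used here. The peak files that the authors deposited hold positions from MACS2 on merged ATAC-seq libraries (4 of mesoderm, 2 of HPCs) or merged CTCF libraries (2 of 416B cells), after Bowtie2 alignment. No column of other samples was present (0 columns not used).

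From the counts, genes were filtered by filterByExpr (minimum count 10), scaled by TMM and tested with the quasi-likelihood test of edgeR 4.0.16 (R 4.3.3, limma 3.58.1), with Benjamini-Hochberg adjustment over all genes tested and a call at an adjusted p under 0.05. Intervals are 95% intervals from the fitted standard errors. DESeq2 1.42.0 was an alternative. The fits were of the wild-type libraries (9), of mesoderm and HPC libraries with their interaction (21), of mesoderm (9) and of HPCs (12). HPC libraries of the same clone counted as samples of their group, and mESC libraries are technical replicates, so p-values there measure the spread between libraries. No pair of libraries agreed within sampling noise. Depth was 7805102 to 24406998 counts, most of them ribosomal, which limits precision for genes with few counts. Each clone was sampled as mesoderm and as HPCs, which pairs these libraries. The deviations of the same clone from its group means correlated by -0.074 to 0.18 over 12423 genes, and the fit with the clone as a block was an alternative.

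Named genes were the 8 members in every comparison, the 2 genes nearest to each member over the 23 libraries, and at most 4 called genes per pathway list and comparison by smallest adjusted p, with genes at 0 added where needed. The members, lists and tests were chosen with earlier results of these data known. Peaks were assigned within 10 kb of a member's span, with overlap of at least 1 base counting as shared, and 300-base windows were read from the mm9 reference and searched for motifs. The scripts (Python 3.11.15, matplotlib 3.10.9 for figures) were tested on simulated data. Sequence of the Tcf4 locus and some Tal1 sites are not reported here.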

Additional observations from a re-analysis of the deposited data

Results flagged for a closer look

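Tcf4 in the P2-CTCF-KO HPC library D2.1 was 46.1 CPM, far from the other 4 libraries of its group at 5.70 to 11.8 CPM. The gap to the nearest library was 0.848 of the range of the group. Of 16 combinations of member and group large enough for this comparison, 1 was marked in this way, and chance marks about 1 in 20. The same library had an endothelial marker sum of 56.2 CPM against 8.66 to 27.2 CPM in the other 4 libraries, and the part of these markers in the Tcf4 value was not tested.

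Cbfa2t3, the corepressor gene, had a step from mesoderm to HPCs that was larger by 2.64 on the log2 scale in P2-CTCF-KO than in wild-type cells (interaction term, adjusted p = 0.0021 with edgeR). The log2 step was 5.28 in P2-CTCF-KO and 2.64 in wild-type cells, and the 3 P2-CTCF-KO mesoderm libraries held 0.344 to 0.666 CPM against 3.36 to 3.66 CPM in wild-type.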

How the results depend on the processing

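The calls of Tal1, Lyl1 and Lmo2 in the comparisons of stages held under all alternatives run. With 1 library left out, the number of members called was 5 to 5 (mesoderm against mESCs), 4 to 5 (wild-type HPCs against mesoderm), 4 to 4 (P1-CTCF-KO) and 3 to 4 (P2-CTCF-KO), and 0 to 0 in the comparisons of genotypes and of steps. With the clone as a block, the Tcf3 call in P2-CTCF-KO cells was lost (-0.63, adjusted p = 0.069 with edgeR), as were Twist2 (-2.97) and Cdh5 (-2.63) in wild-type cells, and no other call on a member or list gene changed. With a fold limit of 1 on the log2 scale the same Tcf3 call was lost. Without the filter on low counts 2 members were called in P2-CTCF-KO against wild-type mesoderm (Tal1 -1.9, Tcf4 -1.07) and 1 against P1-CTCF-KO mesoderm (Tal1 -2.0); the cause was not tested. Without both libraries high in endothelial markers, chosen after seeing the data, Tcf4 in P2-CTCF-KO cells reversed from 0.20 to -0.78. Nfe2 in mesoderm against mESCs ran from -1.77 to 4.5 with 1 library left out and reversed without wild-type clone C8.1, which held its only wild-type mesoderm counts.

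Gene counts moved in P2-CTCF-KO against wild-type mesoderm (3 called, 193 with DESeq2, 464 without the filter, 18 with all 23 libraries in 1 fit), against P1-CTCF-KO mesoderm (0, 96, 277 and 5), in the P2-CTCF-KO step (2, and 36 with DESeq2) and in mesoderm against mESCs (3507, 1441 with libraries of a clone summed, 1085 and 1088 without a technical replicate). The higher and lower calls for mesoderm against mESCs were 1588 and 1919, and 1911 and 1367 with DESeq2. For wild-type HPCs against mesoderm they were 1563 and 1550, and 1476 and 1861 with DESeq2. With a pseudocount of 0.1, 7 of 16 nearest genes stayed. Peaks near the members numbered 40 in mesoderm (25 without a flank, 82 with 50 kb, 24 for peaks wider than the median), 20 in HPCs (12, 35 and 7) and 25 for CTCF (13, 55 and 13), and 0 members had a wide CTCF peak at the start. Depth limits Lyl1 and Lmo4, which were not tested between genotypes in mesoderm.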
